A study of Mus musculus with 3 samples.

Results

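Kupffer cells in which no Timd4 RNA was counted are described here, with 819 such cells among 5423 Kupffer cells from the livers of 3 mice. A cell entered if its barcode held at least 3000 UMIs (unique molecular identifiers, 1 per captured RNA molecule), at least 300 genes and at most 10% mitochondrial UMIs. The summed UMIs of Clec4f, Cd5l, C1qa, C1qb and C1qc also had to make up at least 1% of the cell, a share called K below. Cells with 0 Timd4 UMIs, called Timd4-0 cells, were set against cells of the same library with 3 or more Timd4 UMIs, called Timd4≥3 cells, after every cell was thinned at random to 3000 UMIs. The 819 Timd4-0 cells comprised 212 from the chow mouse, 364 from the 3-day ethanol mouse and 243 from the 10-day ethanol mouse. The 2111 Timd4≥3 cells comprised 944, 650 and 517 cells in the same order of diets, and a further 2493 cells held 1 or 2 Timd4 UMIs.

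Kupffer cells are macrophages that live attached to the walls of the liver's blood sinusoids, where they clear particles, microbes and dying cells. Timd4 encodes TIM-4, a receptor for phosphatidylserine, the lipid that dying cells expose, and in mice TIM-4 marks long-resident Kupffer cells of embryonic origin. Macrophages that have recently developed from blood monocytes carry little TIM-4 at first and gain it slowly, while monocytes carry the chemokine receptor CCR2 and many also the fractalkine receptor CX3CR1.

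The series holds 1 male mouse of 8 weeks per diet: chow, 3 days, or 10 days of Lieber-DeCarli liquid feed with 5% ethanol. Chow is a solid diet, so liquid feeding and ethanol cannot be told apart, and no diet has a second mouse. Non-parenchymal cells were sorted for high F4/80 and intermediate CD11b staining and sequenced with 10x Genomics droplets, a gate that does not use TIM-4. The labels give no strain, genotype or further agent. The 3 deposited matrices summed to 21650747, 21471782 and 16538895 UMIs from the chow, 3-day and 10-day mice, and 2129, 2089 and 1488 barcodes passed the UMI, gene and mitochondrial limits. No barcode of a Timd4-0 cell occurred in 2 libraries.

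Timd4-0 cells made up 10.7% of Kupffer cells in the chow mouse (95% exact binomial interval 9.36 to 12.1), 18.0% in the 3-day mouse (16.4 to 19.8) and 17.1% in the 10-day mouse (15.2 to 19.1). Timd4 is a low-count gene, and after thinning, cells at 0 Timd4 UMIs made up 27.1%, 28.3% and 26.2% of Kupffer cells in the chow, 3-day and 10-day mice. If every Kupffer cell of a library had the same share of Timd4 RNA, 175.3, 300.5 and 195.0 cells would hold none at their depths in the chow, 3-day and 10-day mice, against 212, 364 and 243 counted. That rate was taken over all Kupffer cells, those at 0 included, so any cells without Timd4 RNA lower it, and the comparison sets no limit on their number. A Timd4-0 cell is one without a captured Timd4 molecule, not one shown to lack TIM-4.

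**Figure D1:**
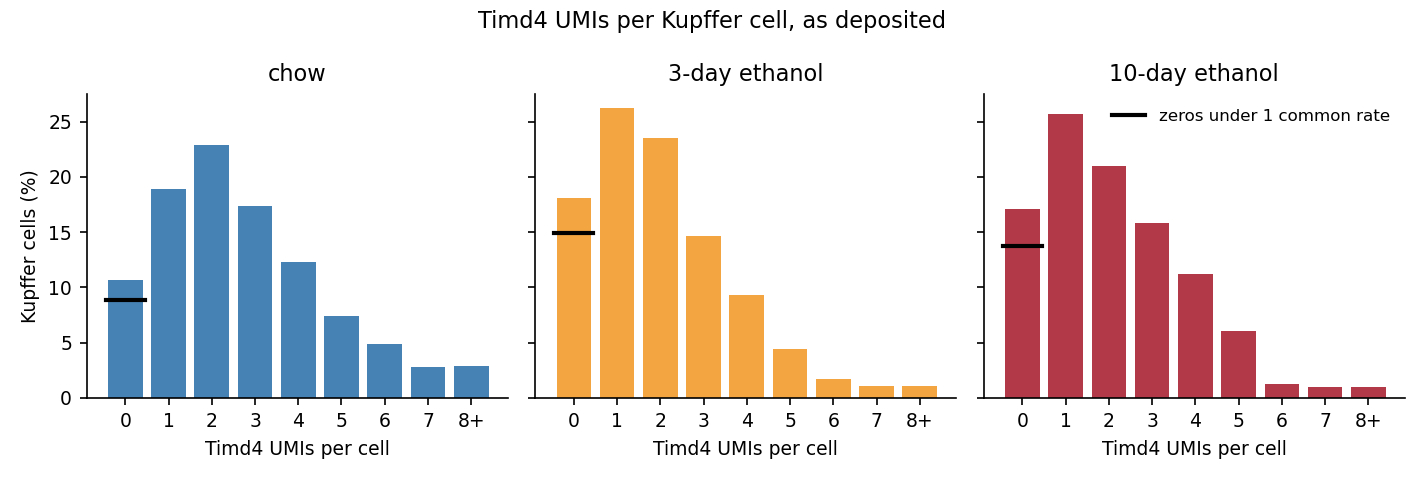
Share of Kupffer cells (%, vertical axis) by the number of Timd4 UMIs as deposited (horizontal axis, 8+ pooling 8 or more), with 1 panel per mouse. The black line marks the zeros that 1 common Timd4 rate would leave, which are 8.84%, 14.9% and 13.7% of cells, against 10.7%, 18.0% and 17.1% counted in the chow, 3-day and 10-day mice.

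Free RNA in the droplets gave some Timd4 UMIs and many of more abundant Kupffer cell genes. Barcodes with T cell markers and a low K, which should not hold Timd4, had a Timd4 UMI in 9.28% of 97 barcodes, 7.69% of 26 and 7.41% of 27 in the chow, 3-day and 10-day mice, at median depths of 3900, 4134 and 3781 UMIs. In the same barcodes Clec4f was counted in 67.0%, 76.9% and 48.1%, Cd5l in 71.1%, 76.9% and 66.7%, and Vsig4 in 42.3%, 50.0% and 37.0%. A UMI of these 3 genes in a cell is therefore no evidence of the cell type on its own, and levels are compared below. Some Timd4-0 cells were near the UMI limit: 38, 77 and 59 held 3000 to under 3300 UMIs, and 30, 109 and 72 barcodes with 2700 to under 3000 UMIs fell just outside. Near the K limit there were 3, 4 and 2 Timd4-0 cells with K of 1% to under 1.2%, and 1, 0 and 3 barcodes at 0.8% to under 1% just outside.

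Timd4-0 cells were shallower than Timd4≥3 cells. Their median depth was 4190.5, 3815.5 and 3736 UMIs in the chow, 3-day and 10-day mice, against 6186, 4714 and 4603 UMIs in Timd4≥3 cells. Median mitochondrial shares were 5.25%, 4.92% and 6.18% in Timd4-0 cells, against 4.82%, 4.80% and 5.78% in Timd4≥3 cells. Thinning equalised the UMI number of each cell, but a cell chosen for 3 or more Timd4 UMIs was still deeper before thinning, and the part of this in the results below is measured with cells of one depth range.

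The genes that chose the cells were close between the classes, apart from Timd4. Clec4f, a Kupffer cell lectin, had 3836, 3918 and 3951 CPM (thinned UMIs scaled to 1000000 in each sum) in Timd4-0 cells of the chow, 3-day and 10-day mice, against 4221, 4315 and 4291 CPM in Timd4≥3 cells. Cd5l, a secreted scavenger protein of tissue macrophages, had 5019, 5287 and 5433 CPM in Timd4-0 cells, against 5372, 5968 and 6078 CPM in Timd4≥3 cells. Both were lower in Timd4-0 cells of every mouse, and C1qa, C1qb and C1qc, the subunits of complement C1q, lay on the same side. K had medians of 2.25%, 2.13% and 2.05% in Timd4-0 cells, against 2.45%, 2.33% and 2.20% in Timd4≥3 cells. These genes entered the rule, so their differences are given as a description. Timd4 had no UMI in Timd4-0 cells by the rule, against 758, 862 and 829 CPM in Timd4≥3 cells.

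Of the Kupffer cell markers that the rule did not use, Vsig4 and Cdh5 were present at like levels. Folr2 and Marco were called lower in the test described below, with log2 folds of -0.34 and -0.43. Clec1b had a log2 fold of -0.17 and was not called (adjusted p = 0.267). Vsig4, a complement receptor, had 3330, 3310 and 3176 CPM in Timd4-0 cells of the chow, 3-day and 10-day mice, against 3183, 3397 and 3265 CPM in Timd4≥3 cells. Cdh5, a cadherin shared with endothelium, had 682, 619 and 796 CPM in Timd4-0 cells, against 624, 635 and 765 CPM in Timd4≥3 cells. The fitted log2 fold was -0.05 ± 0.04 (SE) for Vsig4 and 0.0041 ± 0.052 for Cdh5, with adjusted p of 0.813 and 0.996. By these class levels of Vsig4 and Cdh5 the Timd4-0 cells as a whole were like Timd4≥3 cells, while Folr2 and Marco were called lower. Class levels do not show the identity of single cells, and a small group that differed is described below.

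Few genes were called between the classes. Of 8305 genes tested on the thinned sums of each class and mouse (edgeR quasi-likelihood test with the mouse as a block, Benjamini-Hochberg adjusted p under 0.05), 64 were called, or 0.771%. In Timd4-0 cells 13 genes were higher, or 0.157% of those tested, and 51 were lower, or 0.614%. The median log2 fold over all genes was 0.0064, 774 genes had an unadjusted p under 0.05, and 61 of the 64 called genes lay on the same side in all 3 mice. The 3 mice were fed differently, so the test asks for differences that hold across diets. On simulated counts for this comparison the test recovered 49% of 100 genes changed by 1.5-fold and 98% of 100 changed by 2-fold, so many smaller differences would go uncalled. It also called 4 unchanged genes, with 8259 genes tested. The changed genes all had at least 50 CPM on average, and the simulated spread was fixed, not estimated from these data. These shares therefore do not cover genes below 50 CPM, such as Cx3cr1, Ccr2 and Mmp12. Leaving out the chow mouse gave 6 higher and 20 lower genes, leaving out the 3-day mouse 10 and 23, and leaving out the 10-day mouse 32 and 125. Of the 64 genes 14 were called whichever mouse was left out: Cx3cr1, Ccr2 and Mmp12, which were higher, and Cxcl9, Cxcl13, Ccl6, Cycs, Fabp7, Fcna, Folr2, Gapdh, Ifitm3, Plac8 and Wfdc17, which were lower in Timd4-0 cells. Fabp7 and Wfdc17 are named here after their values were seen.

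**Figure D2:**
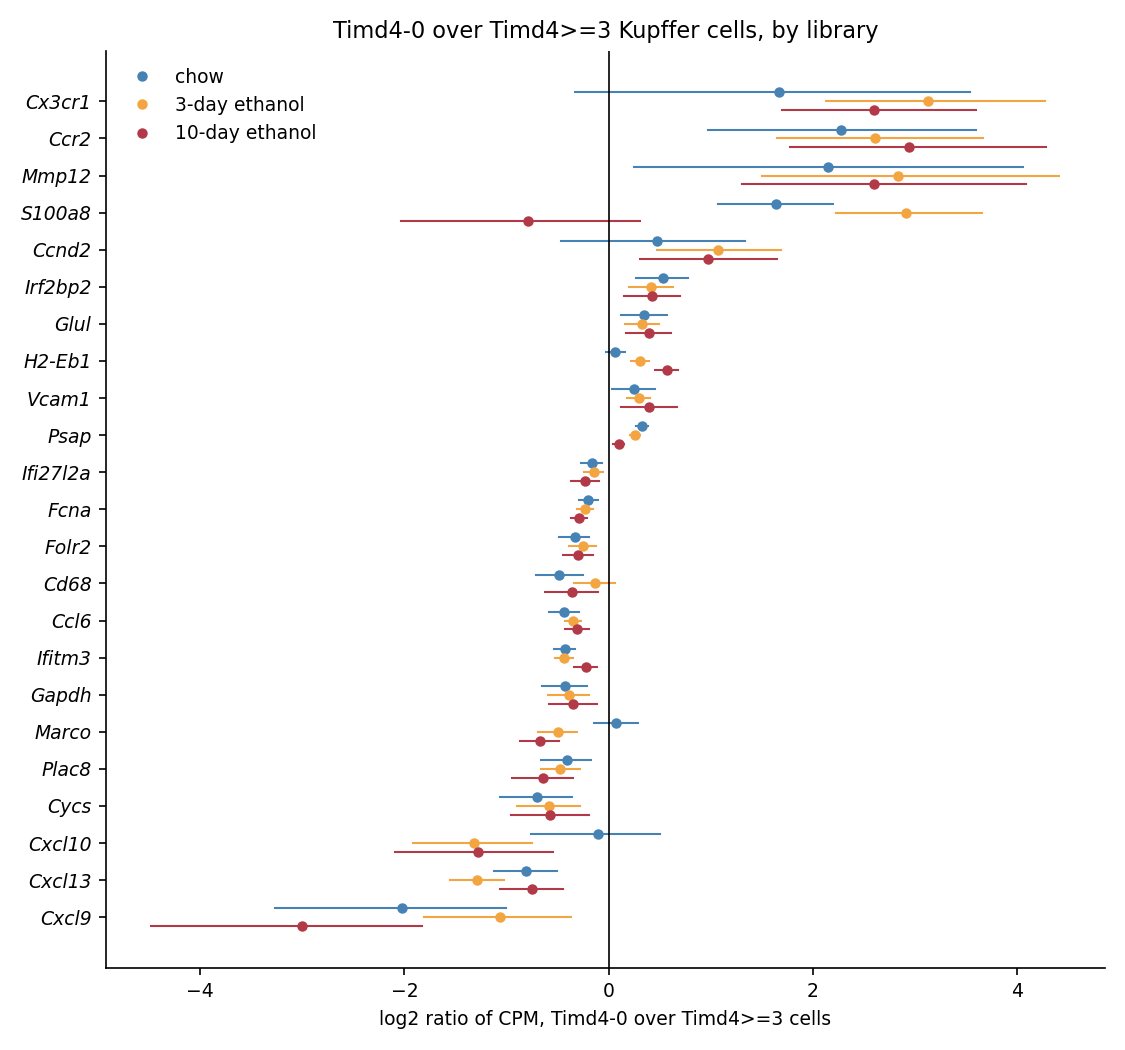
log2 ratio of CPM in Timd4-0 over Timd4≥3 cells (horizontal axis) for 23 called genes, with 1 point per mouse and a line for the 95% exact interval, which covers counting error only. Cx3cr1, Ccr2 and Mmp12 lie furthest right, Cxcl9 furthest left, and S100a8 and Marco have mice on opposite sides of 0.

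The largest differences were the chemokine receptors of monocytes and a macrophage elastase, all higher in Timd4-0 cells and all rare. Cx3cr1, the fractalkine receptor, had 7.86, 44.9 and 54.9 CPM in Timd4-0 cells of the chow, 3-day and 10-day mice, against 2.47, 5.13 and 9.03 CPM in Timd4≥3 cells. It was higher in Timd4-0 cells of all 3 mice, by a log2 fold of 2.63 ± 0.28 (adjusted p = 6.19e-06), although in the chow mouse, with 5 and 7 UMIs, the interval of the ratio ran from 0.80 to 11.6. Ccr2, the receptor by which monocytes leave the marrow, had 18.9, 37.5 and 39.8 CPM in Timd4-0 cells, against 3.88, 6.15 and 5.16 CPM in Timd4≥3 cells. Its log2 fold was 2.56 ± 0.28 (adjusted p = 6.29e-06), and the 2 classes did not overlap. Mmp12, a secreted elastase, had 9.43, 22.0 and 27.4 CPM in Timd4-0 cells, against 2.12, 3.08 and 4.51 CPM in Timd4≥3 cells, a log2 fold of 2.52 ± 0.35 (adjusted p = 0.000162). It was counted in 5, 6 and 6 Timd4-0 cells, against 5, 4 and 7 Timd4≥3 cells, so few cells carried its sums. All 3 genes were below 50 CPM on average and passed the filter on low counts through the Timd4-0 sums, so they could enter the test only where they were high. With no filter, where they entered whatever their level, their log2 folds were 2.60 (adjusted p = 2.67e-18) for Cx3cr1, 2.53 (adjusted p = 7.60e-16) for Ccr2 and 2.49 (adjusted p = 8.86e-09) for Mmp12. In cells of 3000 to 5000 UMIs Cx3cr1 and Ccr2 had too few UMIs to be tested. Cx3cr1 had 1, 26 and 14 UMIs in the 143, 296 and 202 Timd4-0 cells of that range, against 0, 4 and 8 UMIs in 268, 374 and 311 Timd4≥3 cells. Ccr2 had 1, 18 and 4 UMIs there in Timd4-0 cells, against 1, 4 and 3 UMIs in Timd4≥3 cells, so the chow and 10-day mice had at most 4 Ccr2 UMIs in either class. Cells with 1 or 2 Timd4 UMIs, not used in this test, lay between the classes for these genes, with Cx3cr1 at 3.22, 9.31 and 10.6 CPM, Ccr2 at 9.27, 10.97 and 7.04 CPM and Mmp12 at 4.03, 6.65 and 6.54 CPM in the chow, 3-day and 10-day mice.

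**Figure D3:**
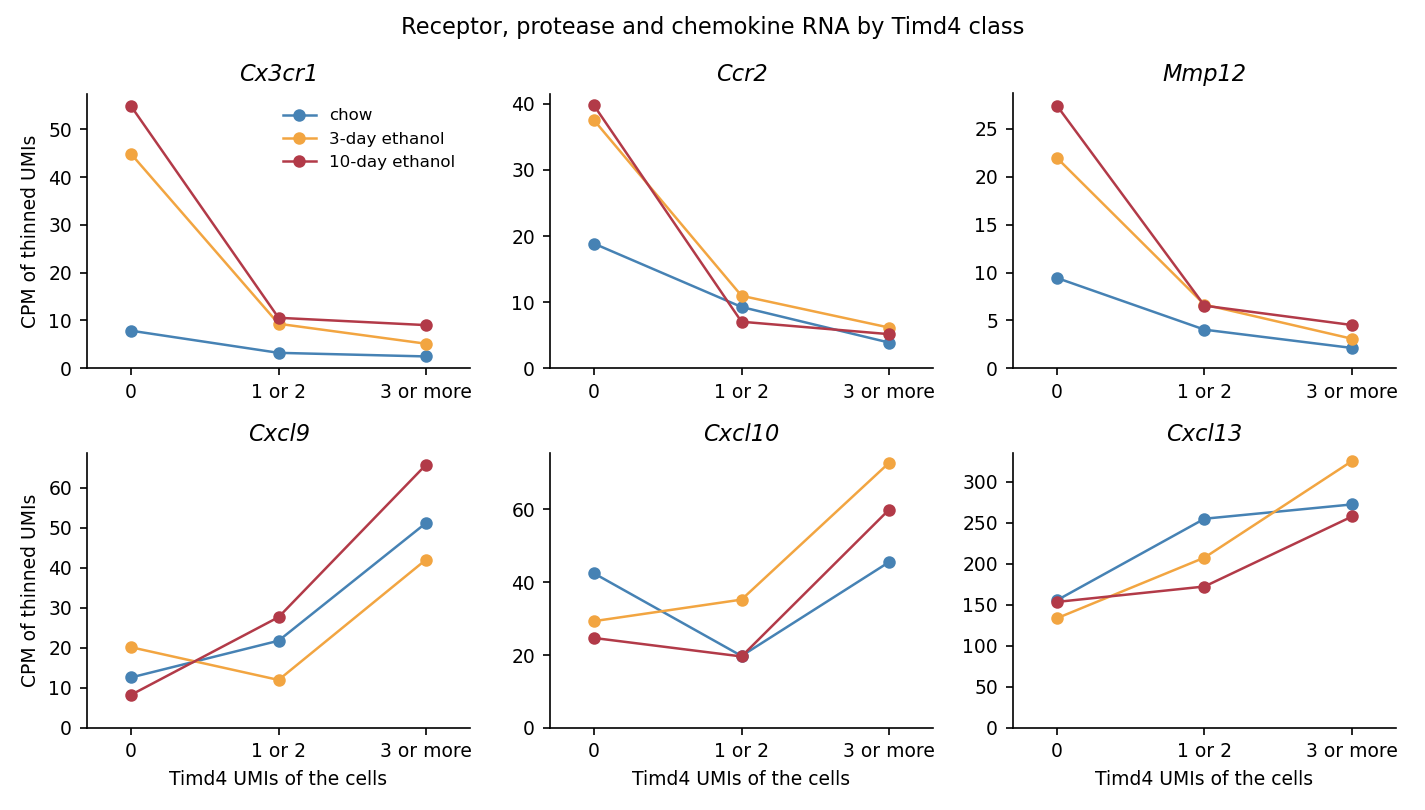
CPM of thinned UMIs (vertical axis, from 0) for 6 genes in cells with 0, 1 or 2, and 3 or more Timd4 UMIs (horizontal axis), with 1 line per mouse. Cx3cr1, Ccr2 and Mmp12 are highest in Timd4-0 cells of each mouse and drop already at 1 or 2 Timd4 UMIs, while Cxcl9, Cxcl10 and Cxcl13 are highest in Timd4≥3 cells.

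Ccnd2, a cyclin of the G1 phase, rose with them. It had 23.6, 47.6 and 52.1 CPM in Timd4-0 cells of the chow, 3-day and 10-day mice, against 16.9, 22.6 and 26.4 CPM in Timd4≥3 cells, a log2 fold of 0.86 ± 0.19 (adjusted p = 0.0247). S100a8, a calcium-binding protein abundant in neutrophils, was called higher (log2 fold 1.66 ± 0.29, adjusted p = 0.00204) on very few cells. It had 73.9, 85.2 and 12.3 CPM in Timd4-0 cells, against 23.7, 11.3 and 21.3 CPM in Timd4≥3 cells. A single Timd4-0 cell of the 3-day mouse held 85 of its 93 UMIs, a single one of the chow mouse held 24 of 47, and in the 10-day mouse S100a8 was lower in Timd4-0 cells. Without the 3-day mouse its log2 fold was 0.89 (adjusted p = 0.194), and without the chow mouse 1.71 (adjusted p = 0.190). Ccnd2 lost its call without any one of the 3 mice, with log2 folds of 0.74 to 0.99.

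The Cx3cr1 and Ccr2 UMIs sat in a small number of cells. A UMI of either gene was found in 6 of 212 Timd4-0 cells of the chow mouse (2.83%, exact interval 1.05 to 6.06), 35 of 364 of the 3-day mouse (9.62%, 6.79 to 13.1) and 19 of 243 of the 10-day mouse (7.82%, 4.77 to 11.9). In Timd4≥3 cells the same held for 13 of 944 (1.38%, 0.74 to 2.34), 15 of 650 (2.31%, 1.30 to 3.78) and 16 of 517 cells (3.09%, 1.78 to 4.98). The intervals of the classes did not meet in the 3-day mouse and met in the chow mouse. In the 10-day mouse they met slightly. Of the cells with 1 or 2 Timd4 UMIs, 27 of 827 (3.26%), 47 of 1003 (4.69%) and 26 of 663 (3.92%) held a UMI of either receptor in the chow, 3-day and 10-day mice. In the chow mouse this share was above that of Timd4-0 cells, and in each mouse such cells outnumbered the receptor-bearing Timd4-0 cells. Both receptors were counted together in 2, 10 and 5 Timd4-0 cells of the chow, 3-day and 10-day mice, against 1, 0 and 0 Timd4≥3 cells. T cell barcodes, as a measure of free RNA, held a Cx3cr1 UMI in 0 of 97, 0 of 26 and 2 of 27 barcodes in the chow, 3-day and 10-day mice. They held a Ccr2 UMI in 43, 11 and 4 of these barcodes, but T cells can carry Ccr2 themselves, so this is no measure of free RNA. Barcodes of 10 to 100 UMIs, which hold mostly free RNA, had 22.8, 30.3 and 18.5 CPM of Ccr2. This was near the 18.9 and 37.5 CPM of Timd4-0 cells in the chow and 3-day mice and below the 39.8 CPM in the 10-day mouse. It was above the 3.88, 6.15 and 5.16 CPM of Timd4≥3 cells. Of Cx3cr1 these barcodes had 6.86, 9.86 and 8.13 CPM, against 7.86, 44.9 and 54.9 CPM in Timd4-0 cells. Of Mmp12 they had 7.53, 16.1 and 11.1 CPM, against 9.43, 22.0 and 27.4 CPM in Timd4-0 cells.

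Timd4-0 cells with a UMI of either receptor differed from the other Timd4-0 cells in their antigen presentation and Kupffer cell genes; they were picked by these counts after the data were seen, and no test is given. Cd74, the invariant chain of MHC class II, had 16111, 13276 and 20140 CPM in these cells of the chow, 3-day and 10-day mice, against 6880, 5263 and 4702 CPM in the other Timd4-0 cells. H2-Eb1, a class II beta chain, had 4667, 3943 and 6421 CPM in them, against 1744, 1292 and 1068 CPM in the others. Clec4f had 1944, 2324 and 1281 CPM in them, against 3892, 4087 and 4177 CPM in the others, and Vsig4 had 2056, 2200 and 930 CPM, against 3367, 3429 and 3366 CPM. C1qa, which entered the rule and is shared by most tissue macrophages, was near the level of the others, at 4222, 4667 and 4439 CPM, against 5409, 4628 and 4158 CPM. C1qb, also of the rule, was higher in them, at 3778, 3943 and 4386 CPM, against 3307, 2665 and 2292 CPM. Lyz2, the lysozyme gene, was higher in them in all 3 mice, at 6778, 5248 and 6719 CPM, against 3888, 2868 and 2650 CPM. Apoe, an apolipoprotein of lipid transport, was lower in the chow mouse and higher in both ethanol mice, at 8056, 20152 and 25754 CPM, against 11650, 11627 and 9113 CPM in the others. Ccnd2 had 167, 143 and 158 CPM in them, against 19.4, 37.5 and 43.2 CPM in the others. Mmp12 had 0, 5 and 0 UMIs in them, the 5 in 1 cell, against 6, 19 and 20 UMIs in the others. Most Mmp12 UMIs of Timd4-0 cells thus lay outside the receptor-bearing cells.

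Markers of conventional dendritic cells and inflammatory monocytes gave few UMIs in these cells, though some lay above the other Timd4-0 cells. Zbtb46, which marks conventional dendritic cells, and Chil3, a monocyte gene, had 0 UMIs in the 6, 35 and 19 cells of the chow, 3-day and 10-day mice. Flt3, the growth factor receptor of dendritic cells, had 0, 1 and 0 UMIs and Ly6c2, a surface antigen of inflammatory monocytes, 0, 3 and 0 UMIs. Cd209a, a lectin of some dendritic cells, had 0, 6 and 0 UMIs, the 6 in 2 cells of the 3-day mouse. Itgax, the integrin CD11c of dendritic cells and some macrophages, had 1, 1 and 3 UMIs, or 55.6, 9.52 and 52.6 CPM, against 1.62, 3.04 and 1.49 CPM in the other Timd4-0 cells. Xcr1, a receptor of cross-presenting dendritic cells, had 1 UMI in the chow mouse and 0 in both ethanol mice. S100a4, a calcium-binding protein of monocytes and other motile cells, had 1, 7 and 0 UMIs, and at 3 days 66.7 CPM, against 3.04 CPM in the others. Plac8, which monocytes share with Kupffer cells in these data, had 222, 324 and 87.7 CPM, against 262, 282 and 174 CPM in the others. Csf1r, the macrophage growth factor receptor, was found in every one of them, at 1944, 1771 and 1842 CPM, against 2498, 2320 and 2348 CPM in the other Timd4-0 cells. They were deeper than the other Timd4-0 cells, with medians of 6818.5, 4642 and 5701 UMIs, against 4132.5, 3777 and 3684.5 UMIs, and 0, 0 and 1 of them were among the highest doublet scores. Their part in a doublet of a Kupffer cell and another cell was not tested.

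**Figure D4:**
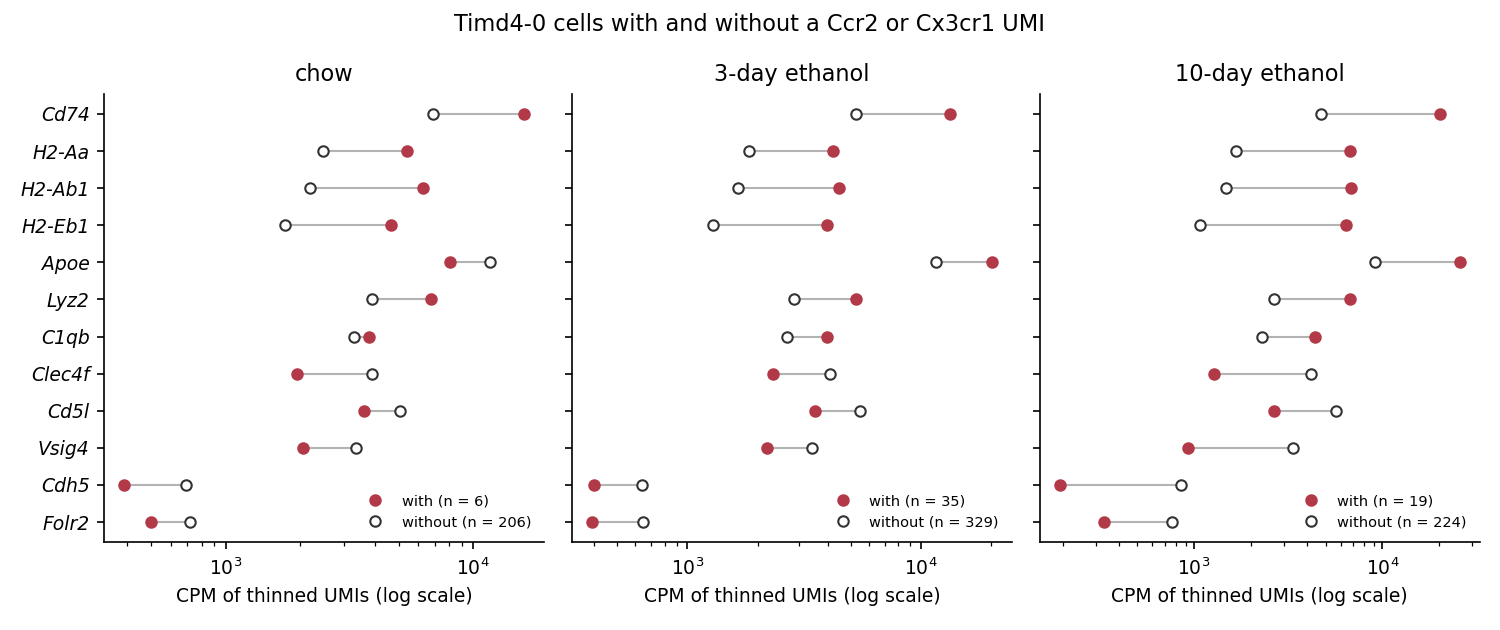
CPM of thinned UMIs (horizontal axis, log scale) for 12 genes in Timd4-0 cells with a Ccr2 or Cx3cr1 UMI (filled) and in the other Timd4-0 cells (open), with 1 panel per mouse. Class II genes lie to the right and Clec4f, Cd5l, Vsig4, Cdh5 and Folr2 to the left in the filled points of all 3 mice, while Apoe changes side between the chow mouse and the ethanol mice.

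Cells nearly without Clec4f showed the same overlap from the other side. At most 2 thinned Clec4f UMIs were found in 2 of 212 Timd4-0 cells of the chow mouse (0.943%, exact interval 0.114 to 3.37), 12 of 364 of the 3-day mouse (3.30%, 1.71 to 5.69) and 10 of 243 of the 10-day mouse (4.12%, 1.99 to 7.44). In Timd4≥3 cells it was 5 of 944 (0.530%), 2 of 650 (0.308%) and 1 of 517 cells (0.193%). Of the 24 Timd4-0 cells with so little Clec4f, 23 held a Ccr2 or Cx3cr1 UMI, and of the 8 such Timd4≥3 cells none did. Of 11 such cells with 1 or 2 Timd4 UMIs, 5 did, so the overlap was not confined to Timd4-0 cells. In those 11 cells Cd74 was at 8583, 12933 and 24333 CPM in the chow, 3-day and 10-day mice. Cd74 reached 36333, 24472 and 25100 CPM in these 2, 12 and 10 Timd4-0 cells, and Vsig4 was at 0, 278 and 167 CPM. Of the genes that make up K, C1qa had 1833, 5833 and 5067 CPM in them, C1qb 6833, 5917 and 5467 CPM, C1qc 3167, 4528 and 4567 CPM, and Cd5l 333.3, 1500 and 1533 CPM. Their class II and Vsig4 levels do not bear out the name Kupffer cell. Clec4f belongs to the rule, so this is a description of the 819 cells with no test.

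The class II call on all Timd4-0 cells was absent without the receptor-bearing cells. H2-Eb1 had 1827, 1547 and 1487 CPM in all Timd4-0 cells of the chow, 3-day and 10-day mice, against 1745, 1250 and 1002 CPM in Timd4≥3 cells, a log2 fold of 0.26 ± 0.06 (adjusted p = 0.0319). Without the 10-day mouse the log2 fold was 0.14 (adjusted p = 0.163). Without cells holding a Ccr2 or Cx3cr1 UMI its log2 fold was -0.0033. Of the 8 class II genes tested 1 rose, beside 0.157% of all genes tested, and none fell. The list median was 0.083, beside 0.0064 over all genes tested.

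The 4 chemokine genes Cxcl9, Cxcl13, Cxcl10 and Ccl6 were called lower in Timd4-0 cells. Cxcl9, a chemokine for activated T cells, had 12.6, 20.1 and 8.23 CPM in Timd4-0 cells of the chow, 3-day and 10-day mice, against 51.2, 42.1 and 65.8 CPM in Timd4≥3 cells, a log2 fold of -1.86 ± 0.23 (adjusted p = 4.14e-05). Cxcl13, a chemokine for B cells, had 156, 134 and 154 CPM in Timd4-0 cells, against 273, 326 and 258 CPM in Timd4≥3 cells, a log2 fold of -1.01 ± 0.10 (adjusted p = 8.22e-07). For both, the classes did not overlap across mice. Cxcl10, a further ligand of the Cxcl9 receptor, had 42.5, 29.3 and 24.7 CPM in Timd4-0 cells, against 45.6, 72.8 and 60.0 CPM in Timd4≥3 cells, a log2 fold of -0.99 ± 0.18 (adjusted p = 0.00415). Its ratio in the chow mouse was 0.93 with an interval of 0.59 to 1.42, so the difference there was within counting error, and without the 3-day mouse the log2 fold was -0.69 (adjusted p = 0.244). Ccl6, a chemokine of myeloid cells, had 708, 1656 and 1100 CPM in Timd4-0 cells, against 958, 2110 and 1361 CPM in Timd4≥3 cells (log2 fold -0.40 ± 0.05, adjusted p = 8.33e-06). In the list of inflammatory cytokines and chemokines these 4 of 20 tested genes fell, beside 0.614% of all genes tested, none rose, and the median was -0.17, beside 0.0064 over all genes. Cells with 1 or 2 Timd4 UMIs had 21.8, 12.0 and 27.7 CPM of Cxcl9, 19.8, 35.2 and 19.6 CPM of Cxcl10, and 255, 208 and 172 CPM of Cxcl13, in the same order of mice. Cxcl13 lay between the classes in each mouse. Cxcl9 lay below Timd4-0 cells in the 3-day mouse, and Cxcl10 in the chow and 10-day mice, so these genes did not fall steadily with Timd4.

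Expression of Cxcl9 was patchy, which limits its precision. Of Timd4-0 cells 6, 12 and 4 held a Cxcl9 UMI in the chow, 3-day and 10-day mice, against 32, 17 and 22 Timd4≥3 cells, and the highest Timd4≥3 cells held 31, 25 and 24 UMIs, so a few cells carried much of the class sum. As shares of cells, Cxcl9 was found in 2.83%, 3.30% and 1.65% of Timd4-0 cells, against 3.39%, 2.62% and 4.26% of Timd4≥3 cells, and in the 3-day mouse this order went against the CPM. T cell barcodes held a Cxcl9 UMI in 2.06%, 0% and 3.70% of 97, 26 and 27, which is near the shares in both classes, so the shares of cells are not read as expression. Mmp12 was found in 2.06%, 0% and 0% of the T cell barcodes, against 2.36%, 1.65% and 2.47% of Timd4-0 cells. Cxcl13 was found in 24.5%, 18.7% and 15.2% of Timd4-0 cells, against 31.7%, 29.4% and 25.5% of Timd4≥3 cells and 5.15%, 3.85% and 0% of T cell barcodes.

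The promoters of these 3 CXC chemokines are shown because the genes fell together. All lie on mouse chromosome 5, with Cxcl9 at chr5:92328030-92328329 and Cxcl10 at chr5:92348840-92349139, both on the minus strand, and Cxcl13 at chr5:95956689-95956988 on the plus strand. Each runs 5′ to 3′ from 250 bases before to 50 bases after the gene start, from RefSeq, build GRCm38.p6, with capitals for the core of an interferon-stimulated response element, searched as GAAA, 2 free bases and GAAA:
Cxcl9: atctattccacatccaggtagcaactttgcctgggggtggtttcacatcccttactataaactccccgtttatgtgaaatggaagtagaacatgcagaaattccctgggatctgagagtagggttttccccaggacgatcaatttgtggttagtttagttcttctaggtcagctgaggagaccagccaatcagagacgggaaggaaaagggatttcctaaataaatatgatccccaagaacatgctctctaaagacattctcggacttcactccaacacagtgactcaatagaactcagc
Cxcl10: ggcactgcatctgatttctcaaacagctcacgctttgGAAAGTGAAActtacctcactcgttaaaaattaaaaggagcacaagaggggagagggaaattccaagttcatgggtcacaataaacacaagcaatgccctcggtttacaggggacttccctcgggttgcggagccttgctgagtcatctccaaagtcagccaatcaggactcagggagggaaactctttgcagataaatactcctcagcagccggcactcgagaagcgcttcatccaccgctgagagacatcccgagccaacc
Cxcl13: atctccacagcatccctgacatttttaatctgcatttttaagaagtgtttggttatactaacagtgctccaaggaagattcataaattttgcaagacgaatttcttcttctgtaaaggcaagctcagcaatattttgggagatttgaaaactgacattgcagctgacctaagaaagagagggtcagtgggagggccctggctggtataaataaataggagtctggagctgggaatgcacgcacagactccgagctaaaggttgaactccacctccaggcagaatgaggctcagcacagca
The core was found in the Cxcl10 window, and in 3.44% of 32851 promoters of this length when both strands were searched. Neither the NF-kB pattern of GGG, 2 free bases and TTTCC nor GAGGAA, a PU.1 core, was found in any of the 3 windows on either strand. They were found in 1.63% and 28.3% of all promoters, and no motif overlapped another. The NF-kB pattern fixes TTTCC, so looser forms of the site, such as gggaaattcc in the Cxcl10 window, were not searched. No absence of NF-kB sites is read from it.

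Some Kupffer cell and macrophage genes were lower. Folr2, a folate receptor, had 709, 622 and 727 CPM in Timd4-0 cells of the chow, 3-day and 10-day mice, against 893, 742 and 892 CPM in Timd4≥3 cells, a log2 fold of -0.34 ± 0.05 (adjusted p = 0.000304). Fcna, a lectin that activates complement, had 1759, 1724 and 2409 CPM in Timd4-0 cells, against 2019, 2026 and 2937 CPM in Timd4≥3 cells, a log2 fold of -0.28 ± 0.04 (adjusted p = 0.000304). Each was lower in all 3 mice. Marco, a scavenger receptor for bacteria, had 338, 283 and 416 CPM in Timd4-0 cells, against 321, 400 and 664 CPM in Timd4≥3 cells, a log2 fold of -0.43 ± 0.09 (adjusted p = 0.00751). It was lower in both ethanol mice and slightly higher in the chow mouse, where the ratio was 1.05. In the list of 20 Kupffer identity genes these 3 fell, none rose, and the median was -0.071. Over all genes tested 0.614% were called lower and the median was 0.0064. Cd68, a lysosomal glycoprotein of macrophages, had 286, 292 and 236 CPM in Timd4-0 cells, against 399, 321 and 303 CPM in Timd4≥3 cells (adjusted p = 0.0106). With Marco it made 2 of 12 scavenger receptors that fell, and none rose (list median -0.048). In cells of 3000 to 5000 UMIs Folr2 was at -0.19 (adjusted p = 0.143) and Cd68 at -0.18 (adjusted p = 0.705), so both calls were lost there.

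Receptors for dying cells other than TIM-4 did not pass the test. Of 19 genes tested in that list none was called in either direction, and the median log2 fold was 0.022. Mertk, a receptor kinase for opsonised dying cells, had 270, 335 and 281 CPM in Timd4-0 cells of the chow, 3-day and 10-day mice, against 277, 291 and 277 CPM in Timd4≥3 cells. Axl, a related kinase, had 942, 892 and 841 CPM in Timd4-0 cells, against 883, 880 and 941 CPM in Timd4≥3 cells. Gas6, which bridges phosphatidylserine to both kinases, was scarce, at 17.3, 16.5 and 32.9 CPM in Timd4-0 cells, against 11.3, 7.18 and 16.1 CPM in Timd4≥3 cells (log2 fold 0.91 ± 0.27, adjusted p = 0.17).

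Genes of respiration and glycolysis were among the lower calls. Cycs, cytochrome c, had 121, 113 and 106 CPM in Timd4-0 cells of the chow, 3-day and 10-day mice, against 197, 169 and 157 CPM in Timd4≥3 cells, a log2 fold of -0.66 ± 0.10 (adjusted p = 0.000431). Gapdh, a glycolytic enzyme, had 319, 259 and 274 CPM in Timd4-0 cells, against 429, 340 and 349 CPM in Timd4≥3 cells, a log2 fold of -0.43 ± 0.07 (adjusted p = 0.000455). Both were lower in all 3 mice without overlap of the classes. In cells of 3000 to 5000 UMIs neither was called, with Cycs at -0.42 (adjusted p = 0.272) and Gapdh at -0.26 (adjusted p = 0.267), and with the classes drawn after thinning they were at -0.19 and -0.077. Of 72 nuclear genes for respiratory chain subunits 3 fell, none rose, 62 lay below 0 and the median was -0.13. Of 87 cytosolic ribosomal protein genes 6 fell, none rose, 72 lay below 0 and the median was -0.079. Over all genes 0.614% were called lower. The 6 called ribosomal genes, Rpl29, Rpl6, Rps15a, Rps19, Rps2 and Rps6, turned to log2 folds of 0.0072 to 0.063 with the classes drawn after thinning, and none was called there or in cells of 3000 to 5000 UMIs. Of 15 glycolysis genes only Gapdh was called.

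Among the other lower genes were products of myeloid and interferon-responsive cells. Plac8, a protein of monocytes and other leukocytes, had 261, 286 and 167 CPM in Timd4-0 cells of the chow, 3-day and 10-day mice, against 347, 396 and 262 CPM in Timd4≥3 cells, a log2 fold of -0.54 ± 0.07 (adjusted p = 7.97e-05). Ifitm3, a membrane protein that blocks virus entry, had 1517, 1471 and 1246 CPM in Timd4-0 cells, against 2044, 1989 and 1453 CPM in Timd4≥3 cells (log2 fold -0.41 ± 0.05, adjusted p = 1.02e-05). Ifitm2, its close paralog, had 393, 448 and 396 CPM in Timd4-0 cells, against 582, 566 and 451 CPM in Timd4≥3 cells (log2 fold -0.41 ± 0.06, adjusted p = 0.000702), and lost its call in cells of 3000 to 5000 UMIs (log2 fold -0.20, adjusted p = 0.377). In the list of type I interferon response genes only Ifi27l2a fell of 20 tested (log2 fold -0.22 ± 0.04, adjusted p = 0.00856), none rose, and the median was -0.13. Over all genes tested 0.614% were called lower and the median was 0.0064. Ltc4s, the synthase of leukotriene C4, had 39.3, 87.9 and 188 CPM in Timd4-0 cells, against 63.9, 148 and 265 CPM in Timd4≥3 cells (log2 fold -0.67 ± 0.11, adjusted p = 0.00102). Aars, an alanyl-tRNA synthetase, Cd300e, a myeloid activating receptor, Ndufb2, a complex I subunit, Rnaset2a, a ribonuclease, and Psenen, a gamma-secretase subunit, fell with log2 folds of -0.68, -0.50, -0.47, -0.41 and -0.40. Rnaset2a has a near-identical copy with which it may share reads, so its value is uncertain.

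Lipid, iron and lysosome genes changed in single members. The counts below stand beside 0.157% of all genes tested called higher, 0.614% called lower and a median log2 fold of 0.0064. Apoc1, an apolipoprotein, and Pltp, a phospholipid transfer protein, fell among 13 LXR targets (log2 fold -0.27 ± 0.05 and -0.24 ± 0.06, list median -0.063). Ftl1, the ferritin light chain, fell among 17 iron and haem genes (log2 fold -0.28 ± 0.04, list median -0.075). Psap, the precursor of the saposins that help degrade sphingolipids, had 5151, 5546 and 5922 CPM in Timd4-0 cells of the chow, 3-day and 10-day mice, against 4107, 4631 and 5533 CPM in Timd4≥3 cells (log2 fold 0.19 ± 0.04, adjusted p = 0.0385, and 0.088 with adjusted p = 0.574 in cells of 3000 to 5000 UMIs). It rose and Cd68 fell among 21 lysosome genes, with a list median of -0.018. Lyz2, lysozyme, fell over all Timd4-0 cells with a log2 fold of -0.24 ± 0.04, though the receptor-bearing ones held more of it. Lgals3, galectin-3, fell with a log2 fold of -0.28 ± 0.05. With Plac8, Lyz2 made 2 of 10 tested genes of the monocyte and recent arrival list that fell, against Cx3cr1 and Ccr2, which rose (list median 0.028). Among 12 lipid-associated macrophage genes Mmp12 rose and Lgals3 fell (list median 0.00056). Cfp, the complement protein properdin, was the 1 call of 11 complement genes (log2 fold -0.22 ± 0.05).

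The remaining higher genes differed by small folds in all 3 mice. Irf2bp2, a transcriptional repressor, had 269, 286 and 251 CPM in Timd4-0 cells of the chow, 3-day and 10-day mice, against 186, 214 and 186 CPM in Timd4≥3 cells, a log2 fold of 0.41 ± 0.08 (adjusted p = 0.00415). The 2 classes did not overlap for it, and the call was lost without the chow mouse (adjusted p = 0.0834) or the 3-day mouse (adjusted p = 0.0924), and in cells of 3000 to 5000 UMIs (log2 fold 0.19, adjusted p = 0.653). Glul, glutamine synthetase, had 321, 483 and 380 CPM in Timd4-0 cells, against 252, 385 and 290 CPM in Timd4≥3 cells (log2 fold 0.31 ± 0.06, adjusted p = 0.0108). Vcam1, an adhesion molecule, had 365, 992 and 246 CPM in Timd4-0 cells, against 308, 807 and 186 CPM in Timd4≥3 cells (log2 fold 0.26 ± 0.06, adjusted p = 0.0294), and differed more between mice than between classes. Btg1, an antiproliferative factor, Atp1b3, a subunit of the sodium pump, and Marcks, a kinase substrate at the membrane, rose by log2 folds of 0.25, 0.23 and 0.19. The next genes by p were Rsrp1, at 0.22 ± 0.06 (adjusted p = 0.0627), and Plekhm2, at 0.41 ± 0.11 (adjusted p = 0.0727), neither of which passed.

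No gene was called in the lists of macrophage transcription factors (20 tested, median 0.0047), MHC class I (15, -0.032), endothelial-shared Kupffer genes (4, 0.019), immediate-early genes (18, -0.023), heat shock (10, -0.088), fatty acid handling (21, 0.042), cell division (18, -0.12), CSF1 and TGF-beta receptors and ligands (12, 0.0011), Toll-like receptors and LPS sensing (16, -0.084) or Fc receptors (6, -0.15). H2-D1, a class I heavy chain, was nearest, with a log2 fold of -0.17 ± 0.04 and an adjusted p of 0.0516. None of the other TIM family genes, Timd2, Havcr1 and Havcr2, had enough counts to be tested.

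Markers of other cell types were summed in both classes. Erythroid markers, the 4 haemoglobin genes, summed to 1961, 94.3 and 37.0 CPM in Timd4-0 cells of the chow, 3-day and 10-day mice, against 62.5, 126 and 580 CPM in Timd4≥3 cells. A single Timd4-0 cell of the chow mouse held 834 haemoglobin UMIs and a single Timd4≥3 cell of the 10-day mouse 844. Of 5 neutrophil markers 4 were detected, with Ly6g at 0, and their summed level was 148, 190 and 79.6 CPM in Timd4-0 cells of the chow, 3-day and 10-day mice, against 75.9, 65.1 and 82.5 CPM in Timd4≥3 cells. In 1 Timd4-0 cell of the 3-day mouse they reached 146 UMIs, and the part of such barcodes in the S100a8 result was not tested. Of 6 monocyte markers F13a1 and Chil3 were at 0 in all Timd4-0 cells, and F13a1 also in Timd4≥3 cells of both ethanol mice. The sums were 288, 329 and 207 CPM in Timd4-0 cells, against 359, 406 and 272 CPM in Timd4≥3 cells. Plac8 made up most of them, at 261, 286 and 167 CPM in Timd4-0 cells, against 347, 396 and 262 CPM in Timd4≥3 cells. Ccr2, of the same 6 markers, went the other way, at 18.9, 37.5 and 39.8 CPM, against 3.88, 6.15 and 5.16 CPM. Of 6 conventional dendritic cell markers the sums were 34.6, 26.6 and 20.6 CPM in Timd4-0 cells, against 26.8, 17.9 and 22.6 CPM in Timd4≥3 cells. Of 4 markers of capsule and peritoneal macrophages, Gata6 and Selp were at 0 in both classes of all 3 mice. The other 2, Cd207 and Icam2, were detected and brought the sums to 349, 291 and 351 CPM in Timd4-0 cells, against 359, 300 and 326 CPM in Timd4≥3 cells. T cell markers summed to 55.0, 65.0 and 63.1 CPM in Timd4-0 cells, against 78.0, 64.6 and 51.6 CPM in Timd4≥3 cells, and hepatocyte markers to 324, 379 and 236 CPM in Timd4-0 cells, against 329, 345 and 314 CPM in Timd4≥3 cells.

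The lower calls depended on how the classes were drawn. With both classes limited to cells of 3000 to 5000 UMIs, 15 of the 51 lower genes were called, all 51 kept the direction, and their median log2 fold was -0.19, against -0.28 as reported. Of the 13 higher genes 11 could be tested there, without Cx3cr1 and Ccr2. All 11 kept the direction, and 5 were called, Mmp12, S100a8, Glul, Vcam1 and H2-Eb1. When the classes were drawn after thinning, as 0 against 1 or more Timd4 UMIs in 3000, 3 of the 51 lower genes were called and 44 kept the direction, with a median of -0.068. Fcna, Marco and Gpx1, a glutathione peroxidase named after its value was seen, were those 3. Of the 13 higher genes 12 kept the direction and 6 were called under that definition, with log2 folds of 2.17 for Cx3cr1, 1.94 for Ccr2 and 1.49 for Mmp12. Cxcl13 was called with a log2 fold of -0.90 in the depth range and was not called after thinning, at -0.39.

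**Figure D5:**
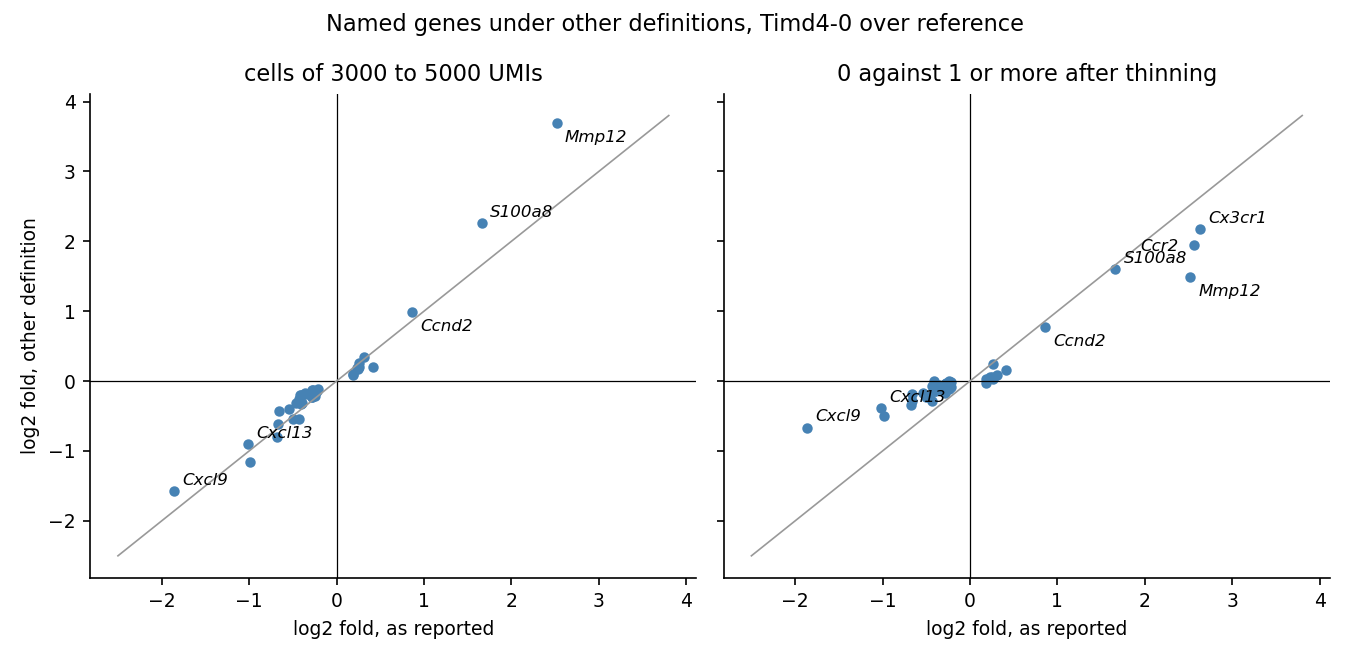
log2 fold of the named called genes as reported (horizontal axis) against the log2 fold under another definition (vertical axis), for cells of 3000 to 5000 UMIs (left) and for 0 against 1 or more Timd4 UMIs after thinning (right). Points on the grey line are equal, Mmp12 and Cxcl9 stay far from 0 on the left, and most lower genes lie near 0 on the right.

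Gene levels within Timd4-0 cells also differed between the mice, given here with 1 mouse per diet and no test. Intervals of ratios below are exact at 95% and cover counting error only. In Timd4-0 cells, 252 of 3258 genes with at least 50 CPM on either diet differed between the 3-day and chow mice by over 1.5-fold with an interval that excluded 1, or 7.73%, with 127 higher and 125 lower at 3 days. Between the 10-day and chow mice it was 258 of 3278 genes, or 7.87%, with 156 higher and 102 lower at 10 days. Both comparisons share the chow mouse. These counts describe single mice, and a gene below 50 CPM on 1 diet could enter only through the other, where it was high.

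At 3 days the most raised gene of Timd4-0 cells was Ttc39c, a tetratricopeptide repeat protein, at 141 CPM, against 12.6 CPM in the chow mouse (ratio 11.2, interval 5.55 to 26.4). Ccl9, a myeloid chemokine, was at 74.2 CPM, against 12.6 CPM in chow (ratio 5.90), and Acot1, an acyl-CoA thioesterase, at 56.8 CPM, against 18.9 CPM (ratio 3.01). All 3 were below 50 CPM in chow and entered through their level in the 3-day mouse. Timd4≥3 cells had ratios of 31.4, 9.32 and 2.19 for the same 3 genes. Tfrc, the transferrin receptor, was at 16.5 CPM in Timd4-0 cells of the 3-day mouse, against 81.8 CPM in chow (ratio 0.202, interval 0.111 to 0.350), with a ratio of 0.349 in Timd4≥3 cells. Vcam1 was at 992 CPM in Timd4-0 cells of the 3-day mouse, against 365 CPM in chow (ratio 2.72), with a ratio of 2.62 in Timd4≥3 cells.

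At 10 days Cx3cr1 had the highest ratio of the genes that entered in Timd4-0 cells, at 54.9 CPM, against 7.86 CPM in the chow mouse (ratio 6.98, interval 2.75 to 22.7). It reached 50 CPM only in the 10-day mouse, so it could enter this ranking only where it was high. In Timd4≥3 cells the ratio was 3.65 (1.38 to 10.7), and these intervals overlap. Ltc4s was at 188 CPM in Timd4-0 cells of the 10-day mouse, against 39.3 CPM in chow (ratio 4.78), and Klf4, a transcription factor of monocytes and macrophages, at 97.4 CPM, against 20.4 CPM (ratio 4.76), with ratios of 4.15 and 5.01 in Timd4≥3 cells. Hpgds, a prostaglandin D synthase, was at 38.4 CPM in Timd4-0 cells of the 10-day mouse, against 121 CPM in chow (ratio 0.317). For Marco the ratio of 10-day to chow was 1.23 in Timd4-0 cells (1.03 to 1.47), against 2.07 in Timd4≥3 cells (1.89 to 2.26). H2-Eb1 had a ratio of 0.814 in Timd4-0 cells (0.749 to 0.885), against 0.574 in Timd4≥3 cells (0.542 to 0.608). Without the receptor-bearing cells H2-Eb1 was at 1068 CPM in Timd4-0 cells of the 10-day mouse, against 1744 CPM in chow. These intervals cover counting error in 2 libraries and compare neither diets nor mice.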

How the data were processed

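The deposited files hold raw UMI counts per gene and barcode, which the authors made with Cell Ranger 2.2.0 on GRCm38 (mm10), per the submitters' processing notes, from F4/80-high, CD11b-intermediate liver cells. Python 3.11.15 applied the limits on UMIs, genes, mitochondrial share and K, drew 3000 UMIs per cell without replacement (seed 1) and summed them per class and mouse. edgeR 4.0.16 (filterByExpr, TMM, quasi-likelihood test) fitted 6 sums with the mouse as a block, since both classes came from the same animal. The 6 genes of the rule were left out of the adjustment and given no test. The fit was checked on simulated counts. No cell was removed as a doublet. Scrublet in scanpy 1.11.5 scored the cells, and leaving out the highest 4% of scores was 1 of the alternatives, with DESeq2 1.42.0 and others on limits and classes. Its scores were ranked, and its own threshold was not used.

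Genes were named if they were called, reached 50 CPM on average in 1 class and lay on the same side in all mice, up to 15 per direction, plus list examples, and the next genes by p where fewer than 10 passed. The members and gene lists were chosen with earlier results of these data known. Intervals of shares and of count ratios are exact at 95% and cover counting error only. With 1 mouse per diet, diets were compared without a test.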

Additional observations from a re-analysis of the deposited data

Results flagged for a closer look

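Marco and S100a8 were called although the mice lay on opposite sides, and the difference between mice was not tested. The ratio of Marco CPM in Timd4-0 over Timd4≥3 cells was 1.053 in the chow mouse, 0.7074 in the 3-day mouse and 0.6259 in the 10-day mouse. The ratio of S100a8 was 3.124 in the chow mouse, 7.549 in the 3-day mouse and 0.5802 in the 10-day mouse, where the interval of 0.244 to 1.24 includes 1. One further called gene, the ribosomal protein gene Rpl29, lay on opposite sides, with log2 ratios of -0.38, -0.32 and 0.04 in the chow, 3-day and 10-day mice.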

How the results depend on the processing

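Counts of called genes moved with the settings, and the cause was not tested. As higher and lower genes in Timd4-0 cells, against 13 and 51 as reported, they were 1 and 26 with DESeq2 (where 17 of the 64 called genes had no adjusted p), 27 and 124 at K of at least 2%, and 4 and 1 at K of at least 3%, where 627 genes were tested. They were 6 and 15 in cells of 3000 to 5000 UMIs, 14 and 3 with the status drawn after thinning, 12 and 32 against cells with 1 or more Timd4 UMIs, and 27 and 113 against cells with 5 or more. They were 3 and 8 at a mitochondrial limit of 5%, 20 and 111 with no filter on low counts, and 27 and 71 without thinning. Without cells holding a Ccr2 or Cx3cr1 UMI, chosen after seeing the data, they were 36 and 152. With no replicate block, which pairs the classes of a mouse, they were 2 and 2. Leaving out 1 mouse gave 6 to 32 higher and 20 to 125 lower genes. A second thinning seed gave 17 and 70. Cx3cr1 and Ccr2 were too low to be tested at K of at least 2%.

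Over 39 called genes named, 656 values under the alternatives held 412 on the same side and still called, 236 on the same side and not called, and 8 reversed. The reversed log2 folds were -0.0033 for H2-Eb1 without cells holding a receptor UMI, -0.0208 for Marcks and 0.0076 for Rnaset2a with the status after thinning, and, at K of at least 3%, -0.0705 for Vcam1, -0.5913 for Atp1b3, 0.0184 for Fcna, 0.0283 for Lyz2 and 0.0605 for Pltp. Genes not called also changed sign near 0. Rsrp1 was at -0.001 with the status after thinning. Mertk was at -0.0601 with that status, -0.0082 against cells with 1 or more Timd4 UMIs, -0.0024 in the depth range and -0.0333 at the mitochondrial limit of 5%, and ran from -0.0422 to 0.0921 when 1 mouse was left out. Axl was at 0.0096 with the second seed and ran from -0.1003 to 0.0012 when 1 mouse was left out, and Vsig4 at 0.038 at K of at least 2%. Cdh5 was at -0.0278 at K of at least 3%, -0.0332 with the status after thinning, -0.1894 at the mitochondrial limit, -0.0257 with no filter, -0.0254 without thinning, and -0.0171 with the second seed, and ran from -0.0271 to 0.0553 when 1 mouse was left out.

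The share of Kupffer cells with 0 Timd4 UMIs in the chow, 3-day and 10-day mice was 27.131%, 28.26% and 26.212% after thinning, 16.589%, 20.527% and 19.183% in the depth range, and 4.386%, 6.2992% and 9.375% at K of at least 3%. It was 9.1% in the chow mouse at the mitochondrial limit of 5% and 15.581% in the 3-day mouse at K of at least 2%. At these depths a cell at 0 Timd4 UMIs cannot be told from one whose Timd4 RNA was not captured.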
